A study of Homo sapiens with 12 samples.

Results

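The FOS and JUN families of AP-1 subunits were followed in HK-2, an established cell line derived from the epithelium of the human proximal renal tubule. The 7 genes FOS, FOSB, FOSL1, FOSL2, JUN, JUNB and JUND were taken by symbol, with earlier results of these data known. Every probe set annotated to 1 of these symbols was taken, which gave 17 of 54675 probe sets and 7 of 19775 genes. Cultures treated with Kbr, the labels' name for the test compound, at what they call a high dose were compared with vehicle cultures, as part of a search for signatures of toxicity. The sources used here state no concentration. Control and Kbr cultures were each taken at 24 h and at 48 h, and each of these 4 groups had 3 arrays labelled as biological replicates. All 12 cultures came from the same line, grew in the same hormone-supplemented medium with added epidermal growth factor, and were treated when nearly confluent on the day after seeding.

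AP-1 is a dimeric transcription factor whose subunits carry a basic leucine zipper. JUN proteins pair with each other or with FOS proteins, whereas FOS proteins need a JUN partner. The dimers bind sites of the form TGANTCA, and with ATF partners also TGACGTCA. Growth factors and cellular stress act on the family through MAP kinases, partly by inducing the genes and partly by phosphorylating the proteins. In renal tubule cells AP-1 genes are known as an early part of the response to injury.

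Levels are log2 values from GCRMA, which corrects each probe for non-specific binding, and 1 unit is a doubling. Medians of the 12 arrays ranged from 2.89 to 2.96, with 39.1% to 39.9% of their probe sets above 4. A gene was tested if its probe set with the highest mean exceeded 4 in at least 3 arrays, and was called at an adjusted p under 0.05 in limma. Of the tubule and renal epithelial markers KRT8, KRT18, PAX8, CDH6 and SLC3A1 were over that level, whereas AQP1, LRP2, CUBN, SLC34A1, ANPEP, MME, GGT1 and PAX2 were not. No endothelial, leukocyte or distal nephron marker passed, 0 of 4, 0 of 3 and 0 of 2 on the array. Of 5 fibroblast markers COL1A1, LUM and DCN passed, while COL3A1 and PDGFRB did not exceed 2.90. The summed level of the 13 tubule and renal epithelial markers was 14.34 to 14.61 in control and 13.94 to 14.17 in Kbr arrays at 24 h. At 48 h it was 14.10 to 14.22 and 13.66 to 13.89. In Kbr against control CDH6 stood at -1.06 at 24 h and -2.57 at 48 h, SLC3A1 at -1.80 and -2.55 and KRT8 at -0.68 and -0.69. KRT18 stood at -0.12 and 0.43 and PAX8 at 0.55 and 0.56, so these markers did not all fall. The summed level of the 5 fibroblast markers was 12.36 to 12.88 in control and 11.41 to 11.83 in Kbr arrays at 24 h, and 12.27 to 12.34 and 10.17 to 10.59 at 48 h. Probe sets for 18S ribosomal RNA averaged 7.64 ± 0.11 in control and 8.14 ± 0.28 in Kbr arrays at 24 h, and 8.07 ± 0.20 and 8.58 ± 0.24 at 48 h (SD, n = 3). The part of these shifts in the AP-1 results was not tested. In such bulk RNA a loss of cells of 1 kind and less RNA per cell cannot be told apart. Kbr 48 h replicate 3 deviated most from its group mean, by a root mean square of 0.290 against 0.164 to 0.228 in the other arrays.

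The comparison of Kbr with control cultures asked which subunits changed after 24 h and after 48 h of exposure. JUN and FOSL1 rose at both times, FOSL2 passed the test for a rise at 48 h, and JUNB and JUND fell at both times. FOS and FOSB stayed below the level needed for a test in all 12 arrays. At 24 h, 2 of the 5 tested members rose and 2 fell, where 12.4% of the 10574 tested genes rose and 20.0% fell. At 48 h, 3 of the 5 rose and 2 fell, where 26.9% of all tested genes rose and 32.8% fell. The median log2 fold change over all tested genes was -0.06 at both times.

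**Figure D1:**
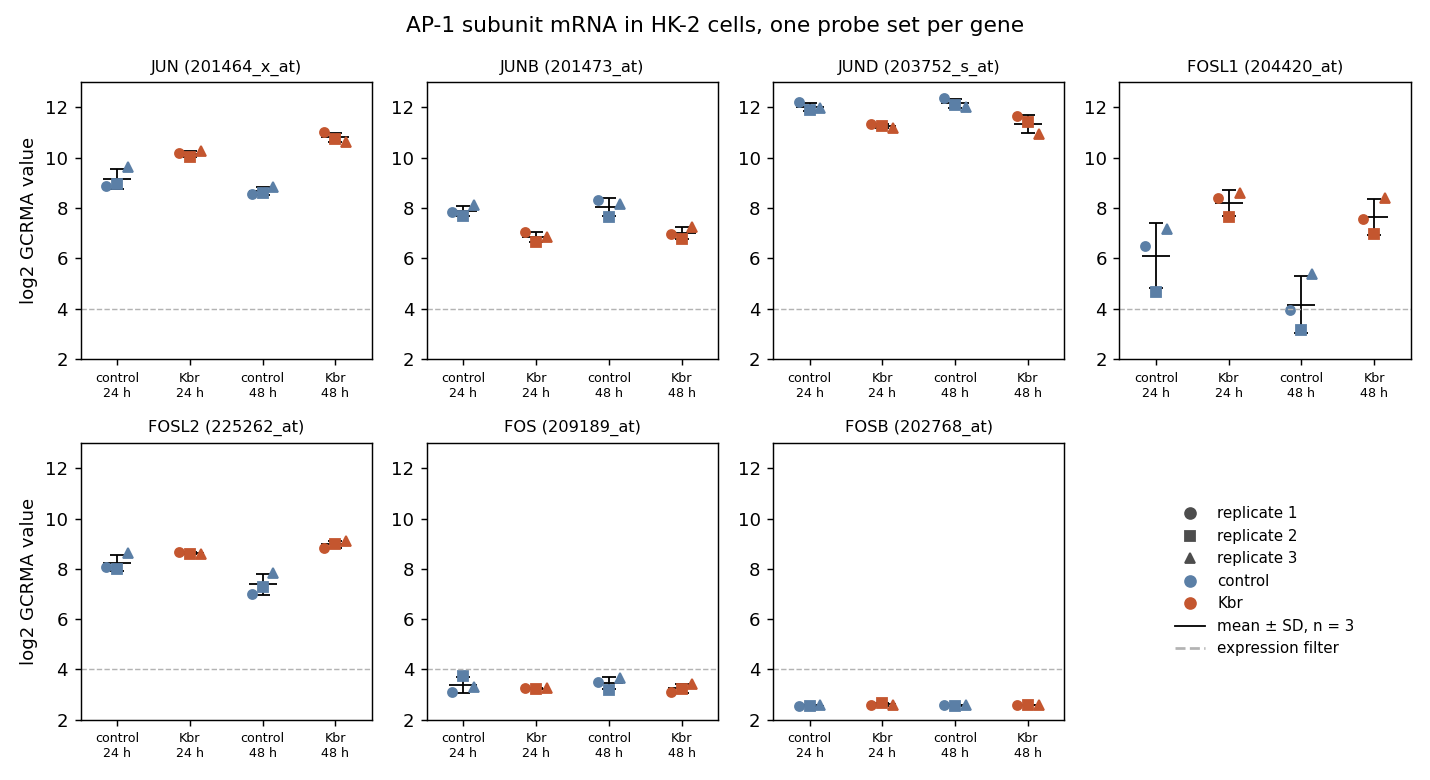
Log2 GCRMA value (vertical axis) of each AP-1 gene on its probe set with the highest mean, by group. Points are arrays, shaped by replicate number, bars are mean ± SD over 3 arrays, and the dashed line at 4 is the expression filter; JUN, FOSL1 and FOSL2 sit higher in Kbr at 48 h, JUNB and JUND sit lower, and FOS and FOSB lie under the line.

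JUN encodes c-Jun, the partner of most FOS proteins. On probe set 201464_x_at the 3 control arrays at 24 h read 8.89, 8.97 and 9.62, and the Kbr arrays 10.19, 10.03 and 10.27. Every Kbr array was above every control array. The difference was 1.00 on the log2 scale, or 2.00-fold (SE 0.19, limma adjusted p = 0.00261). At 48 h the control arrays read 8.54, 8.61 and 8.85 and the Kbr arrays 11.02, 10.76 and 10.64, so the groups lay further apart. The rise at 48 h was 2.14, or 4.41-fold (SE 0.19, limma adjusted p = 5.33e-06). Of all tested genes 132 had a larger rise than JUN at 24 h and 58 at 48 h.

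JUNB encodes a JUN protein that pairs with the same partners but activates many targets more weakly. Its probe set 201473_at read 7.86, 7.68 and 8.11 in control and 7.05, 6.64 and 6.84 in Kbr arrays at 24 h. At 48 h it read 8.32, 7.65 and 8.18 in control and 6.96, 6.78 and 7.25 in Kbr arrays. The groups did not overlap at either time, and the gap was of the same size. JUNB fell by 1.04 at 24 h (SE 0.19, limma adjusted p = 0.00263) and by 1.05 at 48 h (SE 0.19, limma adjusted p = 0.000775), which is 2.06-fold and 2.08-fold lower.

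JUND encodes the JUN protein that is usually present in resting cells. On probe set 203752_s_at it read 12.21, 11.91 and 11.97 in control and 11.36, 11.27 and 11.20 in Kbr arrays at 24 h. At 48 h it read 12.36, 12.10 and 12.03 in control and 11.66, 11.41 and 10.94 in Kbr arrays. All Kbr arrays again lay below all control arrays of their time, and Kbr 48 h replicate 3 was the lowest. JUND fell by 0.75 at 24 h (SE 0.17, limma adjusted p = 0.00696) and by 0.83 at 48 h (SE 0.17, limma adjusted p = 0.00156). Of all tested genes 605 fell further than JUNB at 24 h (5.72%) and 1522 at 48 h (14.4%). For JUND these were 1218 (11.5%) and 2047 (19.4%).

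The promoters of the 3 JUN genes are shown because the genes moved in opposite directions. The RefSeq promoter table (GRCh38.p14) held 6 of the 7 members, without FOSL1. The sequences are the 250 bases before each start, 5′ to 3′ on the gene's strand. JUN lies at chr1:58784048-58784297 on the minus strand, JUNB at chr19:12791236-12791485 on the plus strand and JUND at chr19:18281623-18281872 on the minus strand. Capitals mark matches to TGACNTCA and to TGANTCA, to the CCAAT box and to the TATA box letters TATAAA, on either strand.
JUN: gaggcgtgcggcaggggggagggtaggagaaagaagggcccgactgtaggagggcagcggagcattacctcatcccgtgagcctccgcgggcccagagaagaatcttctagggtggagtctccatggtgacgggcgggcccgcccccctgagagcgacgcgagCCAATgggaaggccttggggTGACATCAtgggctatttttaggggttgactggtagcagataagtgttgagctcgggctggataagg
JUNB: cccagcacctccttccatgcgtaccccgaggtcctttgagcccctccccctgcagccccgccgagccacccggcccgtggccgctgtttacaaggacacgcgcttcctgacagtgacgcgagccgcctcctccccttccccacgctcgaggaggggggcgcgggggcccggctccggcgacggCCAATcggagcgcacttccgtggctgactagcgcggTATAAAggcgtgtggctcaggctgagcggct
JUND: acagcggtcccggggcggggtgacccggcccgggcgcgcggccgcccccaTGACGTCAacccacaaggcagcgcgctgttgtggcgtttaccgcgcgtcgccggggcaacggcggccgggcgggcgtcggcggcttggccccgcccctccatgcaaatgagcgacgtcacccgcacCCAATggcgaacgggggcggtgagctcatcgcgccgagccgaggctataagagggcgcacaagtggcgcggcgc

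The JUN promoter held TGACATCA, a match to TGACNTCA, 67 to 60 bases before the start, and CCAAT 87 to 83 bases before it. The JUND promoter held TGACGTCA 200 to 193 bases before the start, which also matches TGACNTCA, and CCAAT 74 to 70 bases before it. JUNB had neither TGACNTCA nor TGANTCA in this window, but CCAAT 67 to 63 and TATAAA 31 to 26 bases before the start. These letters occur elsewhere too. Of 35116 promoters of the same length 6.87% held TGACNTCA, a motif chosen after the sequences were seen, and 6.57% held TGANTCA. N was read as any base, so these shares can take in letters that AP-1 does not bind. TGACGTCA was held by 1.65%, the CCAAT box by 32.01% and the TATAAA letters by 10.7%. FOS and FOSB also held TATAAA, and FOSL2 held TGANTCA, as TGACTCA, only from the fifth base after its start, a 50-base stretch in which 0.971% of promoters held that motif. The GC-box letters GGGCGG lay 5 times in the JUND window, 2 times in that of JUN and 0 times in that of JUNB, against 1 or more in 42.6% of promoters. TGACNNNGC, part of the antioxidant response element, matched 2 times in JUND and in no other member, and 10.9% of promoters held it.

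FOS, the immediate early gene that gave the family its name, and FOSB, its close relative, are usually transcribed for a short time after a stimulus. FOS (209189_at) read between 3.12 and 3.73 in control and between 3.22 and 3.25 in Kbr arrays at 24 h, and 3.20 to 3.66 and 3.09 to 3.43 at 48 h. FOSB (202768_at) read between 2.54 and 2.67 in all 12 arrays. These are values near the array median, at which a low level and none cannot be told apart, and neither gene was tested.

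FOSL1 encodes FRA-1, a FOS protein without the strong activation domain of FOS that lasts longer in stimulated cells. On its only probe set, 204420_at, the control arrays at 24 h read 6.48, 4.66 and 7.18 and the Kbr arrays 8.39, 7.64 and 8.60. At 48 h the control arrays read 3.95, 3.15 and 5.38 and the Kbr arrays 7.57, 6.96 and 8.40. Every Kbr array was above every control array of its time, although the 3 arrays of a group spread over more than 1 unit in control cultures. The means were 6.11 ± 1.30 in control and 8.21 ± 0.51 in Kbr at 24 h, and 4.16 ± 1.13 and 7.65 ± 0.72 at 48 h (SD, n = 3). FOSL1 rose by 2.10 at 24 h, or 4.29-fold (SE 0.68, limma adjusted p = 0.0364), and by 3.49 at 48 h, or 11.2-fold (SE 0.68, limma adjusted p = 0.00114). Of all tested genes 6 had a larger rise at 24 h.

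The call for FOSL1 at 24 h ended with no expression filter (limma adjusted p = 0.107) and without any of 4 single arrays. Limma's adjusted p was 0.0655 without control replicate 1, 0.122 without control replicate 2, where the rise was 1.38, 0.0929 without Kbr replicate 1 and 0.106 without Kbr replicate 3, whereas blocking on the replicate number gave 0.000576. Because control arrays at 48 h lay near the background of the array, the size of the rise there depends on the low end of the scale. With an offset of 32 added on the linear scale it was 2.17 (limma adjusted p = 0.00115).

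FOSL2 encodes FRA-2, the other FOS protein without that activation domain. On probe set 225262_at the control arrays at 24 h read 8.07, 8.003 and 8.62 and the Kbr arrays 8.67, 8.58 and 8.60, so that control replicate 3 overlapped the Kbr group. The difference of 0.39 (SE 0.21, limma adjusted p = 0.175) did not pass the test, and its 95% interval of -0.07 to 0.84 leaves room for a rise of the size of JUND's fall. At 48 h the control arrays read 7.02, 7.29 and 7.84 and the Kbr arrays 8.83, 8.98 and 9.11, with no overlap. FOSL2 rose by 1.59 at 48 h, or 3.01-fold (SE 0.21, limma adjusted p = 7.38e-05), and 203 genes had a larger rise.

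JUN, JUND and FOSL2 have several probe sets each, which read different stretches of a transcript and share its RNA, and the other 4 members have 1. In a fit of all 19345 probe sets with 1 symbol that passed the filter, 14 of the 17 AP-1 probe sets were tested. The other 3 were those of FOS and FOSB and the JUND probe set 229117_s_at, which read 2.04 to 2.20. At 24 h, 5 of the 14 rose and 2 fell, where 11.7% of all tested probe sets rose and 15.3% fell. At 48 h, 10 rose and 3 fell, where 27.3% rose and 28.7% fell. The 2 treatments were fully separated in 7 of the 14 at 24 h and in 14 of 14 at 48 h, against 48.2% and 60.4% of all tested probe sets.

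All 4 JUN probe sets rose at both times, by 1.00 to 1.42 at 24 h and by 1.65 to 2.90 at 48 h. The largest values were those of 201466_s_at, which read 6.70 to 7.42 in control and 8.43 to 8.66 in Kbr arrays at 24 h, and 5.92 to 6.55 and 8.86 to 9.48 at 48 h. Of the 5 FOSL2 probe sets 0 passed the test at 24 h, with values between 0.24 and 0.75, and with the replicate block 0 passed either. All 5 rose at 48 h, by 1.07 to 2.56. FOSL2 at 218881_s_at, the widest of them, read 3.71 to 5.24 in control and 6.60 to 7.05 in Kbr arrays at 48 h.

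The 3 tested JUND probe sets were less uniform. Only 203752_s_at was called at 24 h, while 203751_x_at stood at -0.51 (limma adjusted p = 0.0505) and 214326_x_at at -0.52 (limma adjusted p = 0.162). At 48 h 214326_x_at fell by 0.72 (limma adjusted p = 0.0334) and 203751_x_at stood at -0.36 (limma adjusted p = 0.102). With the mean of all its probe sets JUND fell by 0.43 at 24 h (limma adjusted p = 0.0245) and fell by 0.47 at 48 h (limma adjusted p = 0.00762). 203751_x_at and 214326_x_at are probe sets whose suffix marks probes that can match other transcripts. The JUN probe set 201464_x_at, on which the JUN gene values rest, has the same suffix. On 213281_at, the JUN probe set without a letter suffix, the rise was 1.01 at 24 h and 2.21 at 48 h (limma adjusted p = 0.0398 and 0.000193). With the replicate number as a block all 3 JUND probe sets passed at both times. The limma adjusted p for 203751_x_at was 0.0176 and 0.0472, and that for 214326_x_at at 24 h was 0.0101. In that fit 24.2% of tested probe sets were lower at 24 h and 34.0% at 48 h.

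**Figure D2:**
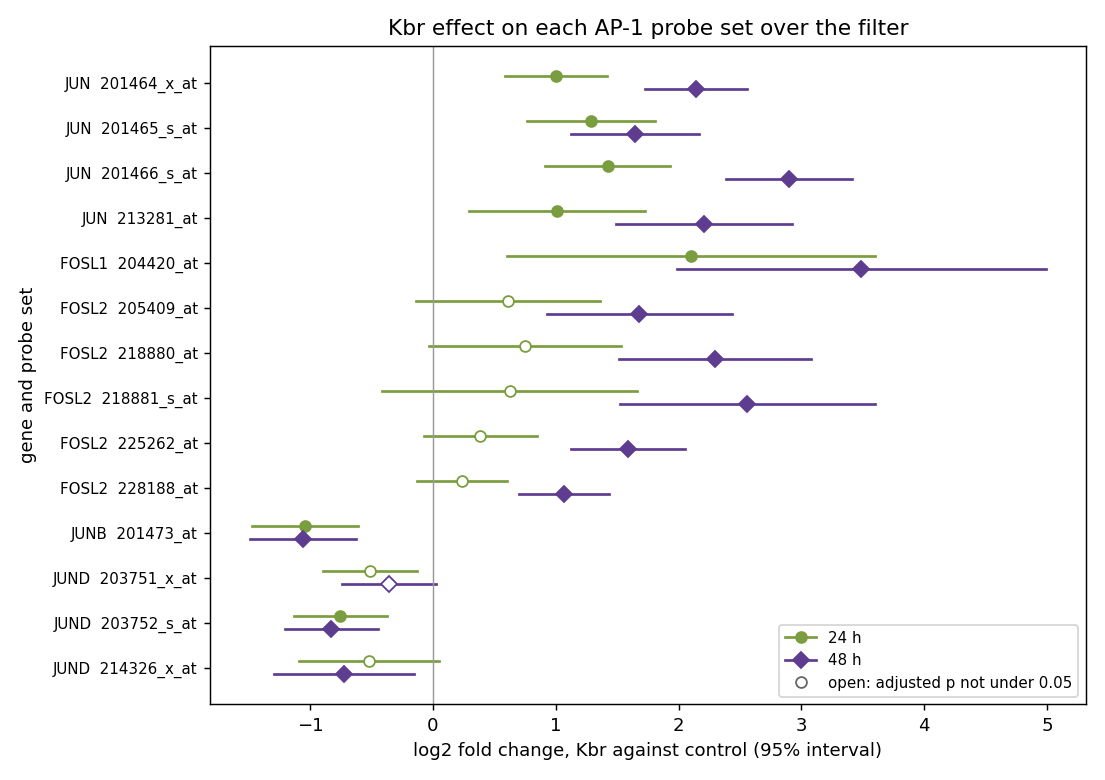
Log2 fold change of Kbr against control (horizontal axis) with its 95% interval for the 14 tested AP-1 probe sets, at 24 h (circles) and 48 h (diamonds). Filled points have an adjusted p under 0.05; all JUN and FOSL2 points at 48 h lie right of 0, from 1.07 to 2.90, and all JUNB and JUND points lie left of it.

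Whether the Kbr effect itself changed between the times was tested as a difference between the 24 h and 48 h effects. The JUN effect grew by 1.14 (SE 0.26, limma adjusted p = 0.0354) and the FOSL2 effect by 1.20 (SE 0.29, limma adjusted p = 0.0416), 2 of 5 tested members where 2.09% of all genes had a difference in that direction. With arrays paired by replicate number, the JUN effect grew by 1.18, 1.10 and 1.14 and the FOSL2 effect by 1.21, 1.11 and 1.28. The pairs lay close together for both genes. The FOSL1 difference of 1.39 (SE 0.96, limma adjusted p = 0.418) did not pass, but did with the replicate block (limma adjusted p = 0.0445), where 20.2% of genes passed in either direction. The FOSL1 difference had a 95% interval of -0.74 to 3.51 without the block. It was 0.55 with the offset of 32 and 0.88 with array weights. It was 2.11 without control 24 h replicate 2, 0.85 without control 24 h replicate 3 and 0.88 without control 48 h replicate 2. JUNB and JUND differed by -0.01 (SE 0.27, limma adjusted p = 0.988) and -0.07 (SE 0.24, limma adjusted p = 0.887). For JUNB the 95% interval was -0.62 to 0.59 and for JUND -0.60 to 0.46.

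With the replicate block the JUN and FOSL2 differences had a limma adjusted p of 0.0152 and 0.00887, where 20.2% of genes passed in either direction. Without the block these calls were close to the threshold. With no expression filter the limma adjusted p was 0.0760 for JUN and 0.0907 for FOSL2, and with the mean of all probe sets 0.0569 and 0.0662. The JUN call ended without any of 8 single arrays, with a limma adjusted p of 0.0515 to 0.0806, and held without Kbr 48 h replicate 3, control 48 h replicate 3 and control 24 h replicates 1 and 2. The FOSL2 call ended without any of 9 single arrays, at 0.0502 to 0.0916, and held without Kbr 48 h replicate 3, control 48 h replicate 3 and control 24 h replicate 1. Among the probe sets 2 of 4 for JUN (201464_x_at and 201466_s_at) and 1 of 5 for FOSL2 (225262_at) passed the same test, where 1.73% of all tested probe sets did. The other JUN probe sets 201465_s_at and 213281_at stood at 0.36 and 1.19, and the other FOSL2 probe sets between 0.83 and 1.94. Of these, 213281_at, the JUN probe set without a letter suffix, had a limma adjusted p of 0.152.

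The time course within each treatment uses the same arrays and shows the 2 sides of these differences. In control cultures FOSL2 fell by 0.85 from 24 h to 48 h (SE 0.21, limma adjusted p = 0.0478), 1 of 5 tested members where 2.30% of genes fell. That call ended without any of 10 single arrays, at 0.0536 to 0.190, and held without control 48 h replicate 3 and Kbr 48 h replicate 3. FOSL2 did not pass in the fit of probe sets (limma adjusted p = 0.0628), but did in the gene fit with the replicate block (limma adjusted p = 0.00678). FOSL1 stood at -1.95 in control cultures (SE 0.68, limma adjusted p = 0.131) and was lower at 48 h in 3 of 3 replicate pairs, at differences of -2.53, -1.51 and -1.80. The FOSL1 time difference was -1.04 with the offset of 32, and passed without control 24 h replicate 2 (limma adjusted p = 0.0492). With the replicate block FOSL1 fell (limma adjusted p = 0.00353), where 20.8% of genes passed. Control JUN arrays at 48 h all lay below those at 24 h, at a difference of -0.50 (SE 0.19, limma adjusted p = 0.155).

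In Kbr cultures JUN rose further by 0.64 from 24 h to 48 h (SE 0.19, limma adjusted p = 0.0379), 1 of 5 tested members where 7.12% of genes rose. The call ended without any of 6 single arrays, Kbr 24 h replicates 1 to 3, Kbr 48 h replicates 1 and 2 or control 48 h replicate 2, at 0.05001 to 0.134. With the replicate block JUN had a limma adjusted p of 0.0196, where 3571 of 10574 genes passed in either direction. In the fit of probe sets the JUN values lay between 0.47 and 0.77. The highest, on 213281_at without a letter suffix, did not pass (limma adjusted p = 0.137). FOSL2 stood at 0.35 (limma adjusted p = 0.269) and FOSL1 at -0.56 (limma adjusted p = 0.622). JUNB and JUND differed by 0.16 and 0.13 between the times in control and by 0.15 and 0.06 in Kbr cultures, none past the test.

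**Figure D3:**
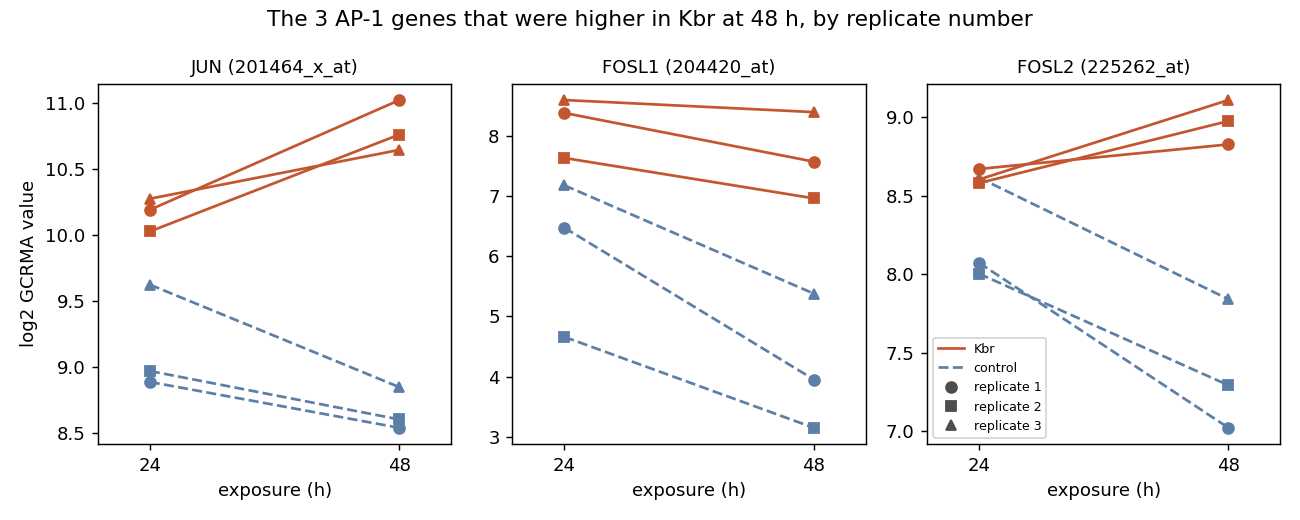
Log2 GCRMA value (vertical axis, own range in each panel) of JUN, FOSL1 and FOSL2 at 24 h and 48 h, with arrays of 1 replicate number and treatment joined by a line (solid, Kbr; dashed, control). Control lines fall in all 3 panels, Kbr lines rise for JUN and FOSL2 and fall slightly for FOSL1, and FOSL1 replicate 2 is lowest and replicate 3 highest in all 4 groups.

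The replicates differed in a shared way for some members. FOSL1 was lowest in replicate 2 and highest in replicate 3 in 4 of 4 groups, and JUNB was lowest in replicate 2 in 4 of 4. Within pairs of the same number the FOSL1 rise was 1.91, 2.98 and 1.42 at 24 h and 3.63, 3.82 and 3.02 at 48 h. The pairs therefore spread less, relative to the rise, than the control arrays alone. JUND had another shared order, with replicate 1 highest in 4 of 4 groups, by 0.08 to 0.32 over the group mean. It was lowest in replicate 2 in 1 of 4 groups and highest in replicate 3 in 0 of 4.

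The counts on the gene lists that follow stand beside the shares over all tested genes given above, 12.4% higher and 20.0% lower at 24 h and 26.9% and 32.8% at 48 h. With the replicate block 18.6% of all tested genes rose and 29.4% fell at 24 h. At 48 h 7338 of 10574 tested genes passed with the block, counted in either direction. The blocked list counts at 48 h therefore have no share by direction beside them. The lists were not tested as sets.

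Leucine zipper proteins outside the FOS and JUN families that pair with them or bind the same sites formed a list of 17 genes, of which 12 were tested. At 24 h, 2 rose and 1 fell (16.7% and 8.33%), or 4 and 2 with the replicate block (33.3% and 16.7%), and the list median was 0.31. MAFG and MAFF, small MAF proteins that lack an activation domain, rose by 1.22 (SE 0.20) and 0.56 (SE 0.19), and BATF3 fell by 0.66 (SE 0.19). At 48 h, 6 rose and 2 fell (50% and 16.7%), or 6 and 3 with the replicate block (50% and 25.0%), with a median of 0.57. ATF3, a stress-induced partner of JUN, read 6.74, 5.53 and 5.37 in control and 12.17, 11.48 and 7.94 in Kbr arrays at 48 h, with replicate 3 far below the other Kbr arrays. It rose by 4.65 (SE 0.93, limma adjusted p = 0.00128), or by 2.83 with the mean of its probe sets. DDIT3, which encodes the stress protein CHOP, rose by 2.25 at 48 h (SE 0.77). It read 10.74, 8.93 and 8.87 in control and 12.91, 12.83 and 9.55 in Kbr arrays, so the groups overlapped. MAFF rose by 1.85 at 48 h (SE 0.19). The DDIT3 call ended without control 48 h replicate 2 or 3 or Kbr 48 h replicate 1 or 2, at a limma adjusted p of 0.0837 to 0.105, with no expression filter (0.0840) and with only the groups compared (0.0934).

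Of 25 MAP kinases and serum response factors that act upstream of AP-1, 22 were tested. At 24 h, 2 rose and 2 fell (9.09% each), or 3 and 6 with the replicate block (13.6% and 27.3%), with a median of -0.13. MAPK10, which encodes the JNK3 kinase of JUN, passed the filter only through control arrays, and its falls at both times are in the counts with that limit. It read 4.01 to 5.69 in control and 2.53 to 3.88 in Kbr arrays at 24 h, and 4.78 to 5.37 and 3.23 to 3.40 at 48 h. Its differences of -1.66 and -1.80 became -0.60 and -0.68 with the offset of 32. MAP2K4, which activates JNK and p38 kinases, rose by 0.60 (SE 0.09), and MAPK3, encoding ERK1, fell by 0.40 (SE 0.13). At 48 h, 6 rose and 9 fell (27.3% and 40.9%), against 26.9% and 32.8% of all tested genes. The list median was -0.32, against -0.06 over all tested genes. The replicate block gave the same counts. MAP3K5, encoding the oxidant-sensitive kinase ASK1, fell by 0.94 (SE 0.23), and MAPK7, encoding ERK5, rose by 0.82 (SE 0.16). Transcript levels do not show the activity of these kinases.

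Genes for the turnover of AP-1 proteins and of short-lived, AU-rich transcripts formed a list of 16, of which 12 were tested. At 24 h, 2 rose and 1 fell (16.7% and 8.33%), or 5 and 1 with the replicate block (41.7% and 8.33%), with a median of 0.15. ZFP36, which encodes the RNA-decay factor tristetraprolin, fell by 0.45 (SE 0.15), and CUL4A, a scaffold of ubiquitin ligases, rose by 0.42 (SE 0.13). ITCH, a ubiquitin ligase for JUN proteins, rose by 0.43 (SE 0.15) on probe set 217094_s_at. At 48 h, 6 rose and 2 fell (50% and 16.7%), or 7 and 2 with the replicate block (58.3% and 16.7%), with a median of 0.34. ITCH rose by 1.39 (SE 0.15), CUL4A by 0.54 (SE 0.13), and TRIB1, a pseudokinase that recruits a ubiquitin ligase, fell by 0.53 (SE 0.15). These values depended on the probe set. With unsuffixed probe sets preferred ITCH stood at -0.091 at 24 h and -0.24 at 48 h, and with the mean of all its probe sets at 0.19 (limma adjusted p = 0.133) and 0.68 (limma adjusted p = 0.000111). CUL4A stood at 0.18 and 0.058 on its unsuffixed probe set and was not called, and at 0.28 and 0.31 with the mean of its probe sets, where it was. TRIB1 stood at -0.26 with the mean of its probe sets (limma adjusted p = 0.227).

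Of 32 textbook AP-1 targets 23 were tested. At 24 h, 1 rose and 2 fell (4.35% and 8.70%), or 5 of each with the replicate block (21.7%), with a median of 0.081. GCLC, which catalyses the rate-limiting step towards glutathione, rose by 1.20 (SE 0.26), or by 0.77 with the mean of its probe sets. EMP1, an epithelial membrane protein, fell by 0.86 (SE 0.25), but stood at -0.26 with the mean of its probe sets (limma adjusted p = 0.0873). ITGA2, a collagen receptor subunit, passed the filter only through control arrays. It read 3.77 to 4.70 in control and 3.21 to 3.80 in Kbr arrays at 24 h, and its difference of -0.84 became -0.28 with the offset of 32. At 48 h, 6 rose and 4 fell (26.1% and 17.4%), or 9 and 5 with the replicate block (39.1% and 21.7%), with a median of 0.14. The 4 falls include ITGA2 with the same limit, at -0.65 (limma adjusted p = 0.0473). Its Kbr arrays at 48 h read 3.14 to 3.79. Without the block the share that rose was close to that of all genes. With the block no share by direction over all genes was taken at 48 h, so those counts cannot be set beside one. HBEGF, a growth factor of the EGF family, rose by 2.54 (SE 0.30), VEGFA, the vascular growth factor, by 2.22 (SE 0.37), and GCLC by 2.19 (SE 0.26). HBEGF read 6.08, 6.20 and 6.76 in control and 8.76, 8.86 and 9.03 in Kbr arrays at 48 h, without overlap, and its rise was 1.32 with the mean of its probe sets.

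Several of the smaller 24 h calls on these lists rested on single arrays. Leaving out 1 array ended the call of BATF3, MAPK3 and CUL4A in 4 of 12 cases each, that of EMP1 in 5, MAFF in 7, ITCH in 9 and ZFP36 in 9, with a limma adjusted p of at most 0.176. The calls of MAFG, MAP2K4 and GCLC at 24 h held in all 12 cases. With no expression filter BATF3, MAFF, ITCH, ZFP36 and EMP1 were not called, at a limma adjusted p of 0.0543 to 0.0944. With quantile normalization MAPK3 and ZFP36 were not called (limma adjusted p = 0.123 and 0.153).

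**Figure D4:**
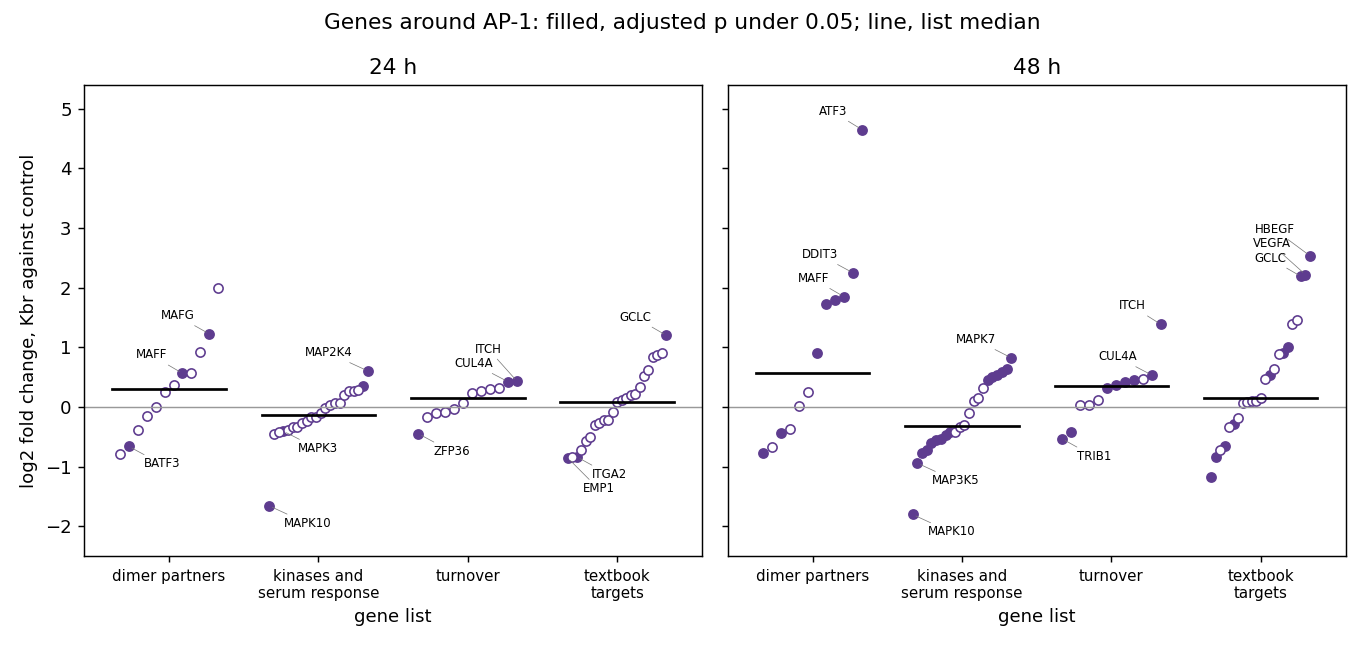
Log2 fold change of Kbr against control (vertical axis) for each tested gene of 4 lists around AP-1, ordered by value within a list, at 24 h and 48 h. Filled points have an adjusted p under 0.05 and horizontal lines are list medians, which lie between -0.32 and 0.57; ATF3 at 48 h is the highest point, at 4.65.

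The genes whose levels followed each member most closely over the 12 arrays were found by Pearson correlation, given here as a description, since the arrays fall into groups and share their treatment differences. For JUN they were TFAM, a factor for mitochondrial DNA (r = 0.993), and the mitochondrial folate carrier SLC25A32 (r = 0.990). TFAM stood at 0.77 and 1.41 higher in Kbr at 24 h and 48 h on the log2 scale. For FOSL1 they were HNRNPAB, an RNA-binding protein (r = 0.985), and the cargo receptor SURF4 (r = 0.984), and for FOSL2 the mitochondrial DNA-binding protein SSBP1 (r = 0.986) and DDIAS (r = 0.981). For JUNB they were FBXW9 (r = 0.979) and the kinesin KIF9 (r = 0.974), and for JUND the glycine receptor subunit GLRB (r = 0.986) and ZBED3 (r = 0.980). FBXW9, KIF9, GLRB and ZBED3 stood lower in Kbr at both times, as JUNB and JUND did, and the neighbours of JUN, FOSL1 and FOSL2 stood higher.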

How the data were processed

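The deposited values are log2 expression values per probe set, made by the authors with GCRMA (version not given), per the submitters' processing notes. Probe sets were named from the platform's annotation: 41091 carried 1 symbol. Each of 19775 genes was represented by its probe set of highest mean, and 10574 genes with a log2 value over 4 in at least 3 arrays were tested. Differences were tested on the log2 scale by limma 3.58.1, run in R 4.3.3, with lmFit and eBayes. The two-sided fit took in all 12 arrays and had 8 residual and 2.87 prior degrees of freedom. Its p-values were adjusted by Benjamini-Hochberg over all tested genes of each of 5 comparisons. A second fit took all 19345 probe sets with 1 symbol over the filter. SE is the moderated standard error and SD the spread over 3 arrays. The number of arrays limits the precision. The fits were tested on simulated data.

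The AP-1 genes, the gene lists and the tests were chosen with earlier results of these data known. All 7 AP-1 genes were named, with the 3 largest changes of every list at either time, called genes first, and the 2 genes closest to each tested member by correlation. After group means were removed, 18 array pairs with the same replicate number correlated between 0.232 and 0.633 whereas the 36 pairs that differed in number gave -0.378 to -0.004. The numbers were therefore taken to pair the arrays in an alternative fit with a replicate block, which left 6 residual degrees of freedom. The labels state no pairing, so the main calls were made without the block. The fits with an array left out had no block either. The other alternatives were the filter, the choice of probe set, the scaling, an offset of 32, a trended and robust prior, array weights, an adjusted p under 0.01, only the groups compared, and each array left out. Promoters of RefSeq (GRCh38.p14) were searched on both strands with Python 3.11.15, and figures were drawn with matplotlib 3.10.9.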

Additional observations from a re-analysis of the deposited data

Results flagged for a closer look

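The effect of Kbr differed between 24 h and 48 h for 2 of the 5 tested AP-1 genes, where 2.09% of all tested genes had a difference in that direction. For JUN it was 1.00 at 24 h and 2.14 at 48 h, a difference of 1.14 on the log2 scale (limma adjusted p = 0.0354), positive in 3 of 3 replicate pairs. For FOSL2 it was 0.39 and 1.59, a difference of 1.20 (limma adjusted p = 0.0416), also positive in 3 of 3 pairs. Leaving out 1 array ended the JUN call in 8 of 12 cases and the FOSL2 call in 9 of 12. With all arrays and the replicate block the limma adjusted p was 0.0152 for JUN and 0.00887 for FOSL2, where 20.2% of genes passed in either direction. Groups of 3 arrays were not tested for single arrays that stood apart.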

How the results depend on the processing

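The count of called AP-1 genes was 3 or 4 at 24 h and 5 at 48 h under all 24 alternatives. Of 595 alternative values of the AP-1 fold changes 582 kept their direction. The counts for the other comparisons were less stable. The 2 members whose Kbr effect changed with time became 3 with the replicate block, 0 with no expression filter, 0 with the mean of probe sets, 1 with unsuffixed probe sets, 0 at an adjusted p under 0.01, and 0 to 2 with an array left out. The 1 member called over time in control cultures became 2 with the replicate block, 0 with no filter, the mean of probe sets, array weights, an adjusted p under 0.01 or only the groups compared, and 0 to 1 with an array left out. The 1 member called over time in Kbr cultures became 0 with no filter, with unsuffixed probe sets and at an adjusted p under 0.01, and 0 to 1 with an array left out. Values near 0 changed sign: the JUNB change of effect was 0.0025 with arrays centred on their median and -0.21 to 0.12 with an array left out, that of JUND 0.051 with array weights and -0.23 to 0.12 with an array left out. The Kbr time difference of JUNB was -0.0083 with array weights, and that of JUND -0.10 to 0.26 with an array left out. ITCH turned to -0.091 at 24 h and -0.24 at 48 h with unsuffixed probe sets. The cause was not tested. Over all genes, the 3429 calls at 24 h were 1830 at an adjusted p under 0.01, the 590 for the change of effect ranged from 32 to 2140, the 426 for control time from 0 to 2202, and the 1813 for Kbr time from 508 to 4303. Of 384 alternative list counts 122 moved by more than 1.5 times, and the replicate block moved 6 of 16.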

Other observations

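MMP1, the collagenase often used as a readout of AP-1, was singled out after its values were seen. It read 7.27, 7.26 and 7.49 in control and 6.97, 7.33 and 6.82 in Kbr arrays at 24 h, and 2.92, 4.78 and 5.22 in control and 3.37, 3.85 and 4.71 in Kbr arrays at 48 h. The treatments overlapped at both times, and both lay lower at 48 h. From 24 h to 48 h MMP1 fell by 3.03 in control cultures (SE 0.50, limma adjusted p = 0.0172) and fell by 3.06 in Kbr cultures (SE 0.50, limma adjusted p = 0.00394). At 48 h 1 control array and 2 Kbr arrays read under the filter of 4. With an offset of 32 on the linear scale the differences became -1.83 in control and -1.76 in Kbr cultures. The control call ended without control 24 h replicate 3 (limma adjusted p = 0.0737) and with only the groups compared (0.112). The Kbr differences were -0.30 at 24 h and -0.33 at 48 h (limma adjusted p = 0.683 and 0.594).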
